A study of Mus musculus with 6 samples.

Results

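The Il6 family of cytokines signals through gp130, the receptor chain encoded by Il6st, and on through Jak kinases to the transcription factor Stat3. Its transcripts were followed here in quiescent muscle stem cells (qMuSCs) with and without Dio2. The 10 genes were taken from a fixed list, by symbol, out of the 31053 genes counted. They are the ligands Il6 and Lif, the receptor chains Il6st, Osmr, Lifr and Il6ra, the kinases Jak1 and Jak2, Stat3 itself and its feedback inhibitor Socs3. The list names genes and sets no condition on their values, but it was chosen with earlier results of these data known. Of the 10, 8 passed the minimum for testing, a mean above 10 normalized counts per mouse. Il6 and Lif did not pass it.

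RNA was sequenced from qMuSCs of hindlimb muscles of resting mice 3 to 4 months old, with a library per mouse. The 3 WT mice (c124, c129 and c130) had the genotype Pax7nGFP/+;Pax7+/+;Dio2Fl/Fl, and the 3 cD2KO mice (fl125, fl126 and fl128) the genotype Pax7nGFP/+;Pax7-CreERT2/+;Dio2Fl/Fl. Both groups carried floxed alleles of Dio2, the gene of the type 2 deiodinase that makes active thyroid hormone inside cells, and both were given tamoxifen. Recombination of Dio2 and the presence of Cre therefore cannot be told apart between the groups. Cre was driven by Pax7, so that the deletion was directed to muscle stem cells and not to other cells that a sort may hold. Cells were sorted by a Pax7 reporter with nuclear GFP.

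Ligands of this family bind a private receptor chain and then gp130, which all of them share. Il6 uses Il6ra, Lif uses Lifr and oncostatin M uses Osmr, each in a complex with gp130. The bound Jak kinases phosphorylate Stat3, which enters the nucleus and induces its targets. Socs3 is among these targets and shuts the receptor down again. In resting muscle, oncostatin M from the muscle fiber is known to hold stem cells in quiescence, while Il6 and Lif are known from injured or exercised muscle. The counts report transcripts and not phosphorylation, so the activity of Stat3 was not measured.

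Total counts ran from 2184073 to 3897787 per mouse, and 3 counts, taken as the floor of detection for counting error alone, stood for 0.768 to 1.36 CPM (counts relative to the total count of the library, scaled with TMM factors). Dio2 itself had 21, 5 and 10 counts in c124, c129 and c130 and 15, 5 and 1 in fl125, fl126 and fl128 (two-sided exact permutation test, p = 0.7, where 0.1 is the smallest p that 3 mice against 3 allow). The library labelled fl125 therefore had more Dio2 for its depth than any other, against its label, although counts over the whole gene do not single out the floxed part. Muscle stem cell markers were present in every library, with 10 of 10 tested and summed levels of 1090 to 1660 CPM in WT and 1940 to 2100 CPM in cD2KO mice. Markers of other cells were present as well. The 14 immune markers summed to 4200, 7800 and 5210 CPM in c124, c129 and c130 and to 218, 2350 and 2800 CPM in the libraries labelled fl125, fl126 and fl128. A pair of libraries stood apart, c129 with the most immune and immediate early RNA and fl125 with the least of both. Calls named below among the members, the wider pathway and the Stat3 targets are therefore given with and without them. Calls in the marker lists are given for all mice only.

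Il6ra, Lifr and Socs3 were called lower in cD2KO than in WT qMuSCs, and no member was called higher. A gene is called where edgeR's quasi-likelihood test gave a p under 0.05 before adjustment, the line of the study's volcano plot. Only adjusted p-values are printed, and a call without a small adjusted p is weak evidence for a single gene. Of the 8 members tested, 3 (37.5%) were called lower, against 6.62% of all 11633 genes tested, and 0 were called higher, against 5.34% of all genes. DESeq2 and limma voom also called 0 members higher. With p-values adjusted over all genes by Benjamini-Hochberg, 0 of the 8 members had an adjusted p under 0.1, a level reached by 0.774% of all genes, or under 0.05, reached by 0.0086%. The median log2 fold change was -0.25 over the 8 members and -0.02 over all genes. With c129 left out, 0 members were called, and without the library labelled fl125 only Il6ra was.

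**Figure D1:**
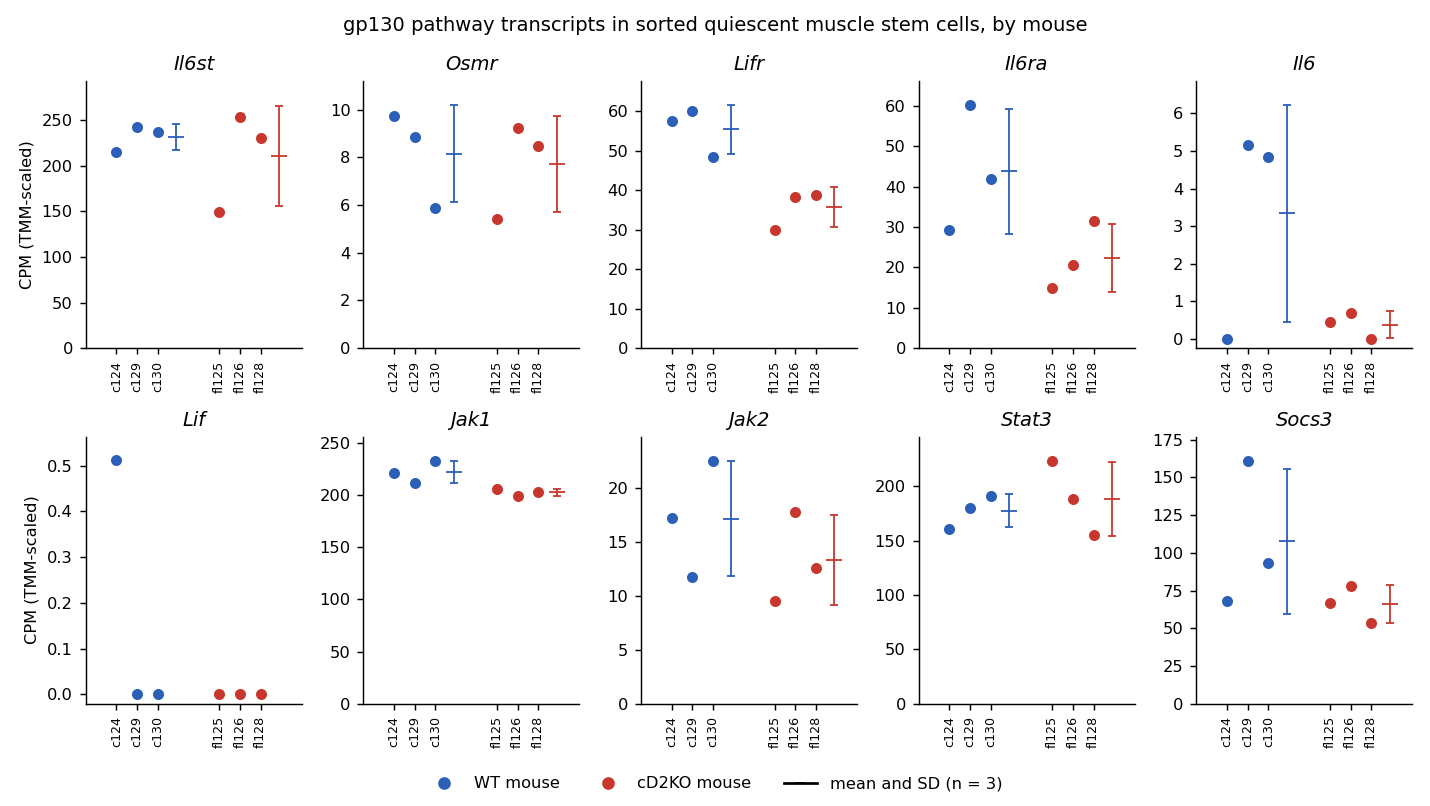
TMM-scaled CPM (y axis, a scale for each gene starting at or just under 0) of the 10 members in each of the 6 mice (x axis), in WT (blue) and cD2KO (red), with the mean and SD of 3 mice beside the points, left out for Lif. Lifr lay lower in all 3 cD2KO mice (29.9 to 38.9 CPM) than in all WT mice (48.5 to 60.2 CPM), as Jak1 did by a smaller step, while Il6st, Osmr and Stat3 overlapped between the groups.

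The promoters of the called members are shown. Their calls are weak evidence of a difference, since none had an adjusted p under 0.1 by edgeR and none held without c129. Each line is part of the 250 bases upstream of the first RefSeq start site (GRCm38.p6, the assembly of mm10), without bases that belong to annotated exons of protein-coding genes. It is read 5′ to 3′ on the strand of the gene. Capitals mark a STAT-type motif in Socs3 and a thyroid hormone receptor half-site in Lifr.
Socs3, chr11:117969452-117969616, minus strand, 250 to 86 bases before the start: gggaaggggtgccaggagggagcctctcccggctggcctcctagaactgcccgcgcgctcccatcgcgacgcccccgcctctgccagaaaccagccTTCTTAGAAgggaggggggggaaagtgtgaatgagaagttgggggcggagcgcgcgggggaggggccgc
Lifr, chr15:7129322-7129558, plus strand, 250 to 14 bases before the start: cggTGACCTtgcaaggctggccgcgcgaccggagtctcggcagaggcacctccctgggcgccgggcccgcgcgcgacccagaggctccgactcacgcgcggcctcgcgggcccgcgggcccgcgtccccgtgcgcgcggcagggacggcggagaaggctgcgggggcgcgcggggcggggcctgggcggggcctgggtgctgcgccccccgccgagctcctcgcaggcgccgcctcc
Il6ra, chr3:89913197-89913446, minus strand, 250 to 1 bases before the start: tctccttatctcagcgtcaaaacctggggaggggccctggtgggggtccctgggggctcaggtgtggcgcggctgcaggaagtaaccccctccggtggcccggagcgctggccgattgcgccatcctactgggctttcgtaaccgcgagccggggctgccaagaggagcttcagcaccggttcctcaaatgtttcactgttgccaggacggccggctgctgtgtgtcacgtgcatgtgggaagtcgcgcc

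The STAT-type motif TTCNNNGAA, which reads the same on both strands, was in the window of 1 of the 10 members, Socs3, as TTCTTAGAA with its first base 154 bases before the start. It was in 7.02% of 32851 such windows. A stricter form, TTCCNGGAA, every match of which is also a match of the first, was in 0 members and in 0.913% of windows. The half-site AGGTCA, searched on both strands, was in 1 of the 10 members, Lifr, and in 14% of windows. A member was counted where any of its windows matched, while the shares count each window. Lifr had a further window, starting at chr15:7140292, that held no half-site. The Il6ra window held none of these letters. The annotation places further start sites of Socs3 and Lifr upstream of those used, and no binding was measured, so the letters describe the windows only.

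Ligand transcripts were at or near the floor. Il6 (interleukin 6, ENSMUSG00000025746, mm10 chr5:30013114-30019981, plus strand) had 0, 14 and 14 counts in c124, c129 and c130 and 1, 2 and 0 counts in fl125, fl126 and fl128. These stand for 3.34 ± 2.9 CPM in WT mice and 0.379 ± 0.348 CPM in cD2KO mice, given as mean ± SD of 3 mice here and below (exact permutation test, two-sided, p = 0.4). A pair of WT mice lay above every cD2KO mouse, while the WT mouse c124 had no read, so the groups overlapped. Lif (leukemia inhibitory factor, chr11:4257557-4272514, plus strand) had 2 counts in c124 and 0 in the other 5 mice, below the floor everywhere. Among the other ligands, Osm (oncostatin M) had 0, 10 and 2 counts in WT and 0, 4 and 1 in cD2KO mice and was not tested. Its highest value, 3.69 CPM, was again in c129. Clcf1 (cardiotrophin-like cytokine) passed the minimum. Clcf1 was at 8.57 ± 1.23 and 8.88 ± 4.75 CPM, a log2 fold change of 0.04 with an adjusted p of 0.987 by edgeR. Clcf1 was not called.

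Il6st, the shared signaling chain gp130 (ENSMUSG00000021756, chr13:112464070-112510086, plus strand), was at 215, 243 and 237 CPM in c124, c129 and c130 and at 149, 254 and 230 CPM in the libraries labelled fl125, fl126 and fl128. The group means were 232 ± 15.1 and 211 ± 55.4 CPM, and the ranges overlapped because only fl125 was low. The log2 fold change was -0.13 (SE 0.22, 95% interval -0.6 to 0.34, edgeR adjusted p = 0.876). It was 0.10 without fl125, so its direction rested on that library. The interval leaves room for a fall by 0.6 on the log2 scale. Osmr, the oncostatin M receptor chain (ENSMUSG00000022146, chr15:6813577-6874969, minus strand), was at 9.73, 8.86 and 5.88 CPM in WT and at 5.43, 9.23 and 8.48 CPM in cD2KO mice. It had 12 to 38 counts per mouse, was the lowest of the 4 receptor chains in CPM per kb of exonic length, and overlapped between the groups. Its log2 fold change of -0.07 had a 95% interval from -1.08 to 0.93 (SE 0.47, edgeR adjusted p = 0.969), so that a change by either sign of about this width was not detectable at this depth. Leaving out c124, c129 or fl125 turned its sign, to 0.07, 0.01 and 0.15.

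Lifr, the Lif receptor chain (ENSMUSG00000054263, chr15:7090614-7197489, plus strand), was at 57.6, 60.2 and 48.5 CPM in c124, c129 and c130 and at 29.9, 38.3 and 38.9 CPM in the libraries labelled fl125, fl126 and fl128. Every cD2KO mouse lay below every WT mouse, as in 10% of all genes tested, and the lowest of all was fl125. Mean levels were 55.4 ± 6.16 and 35.7 ± 5.05 CPM, a fold of 0.646 (log2 fold change -0.63, SE 0.23, 95% interval -1.13 to -0.13, edgeR adjusted p = 0.292). The exact permutation test of the CPM gave p = 0.1, the smallest it can give. The call held in 4 of the 6 fits that left out a mouse. It was lost without c129 (-0.54) and without fl125 (-0.48), and without both the log2 fold change was -0.43.

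Il6ra, the Il6 receptor chain (ENSMUSG00000027947, chr3:89864059-89913196, minus strand), had the steepest difference of the members tested. It was at 29.4, 60.2 and 41.9 CPM in the WT mice and at 14.9, 20.5 and 31.4 CPM in the cD2KO mice, in the same order. The highest cD2KO mouse, fl128, lay just above the lowest WT mouse, c124, so the groups overlapped. Mean levels of 43.8 ± 15.5 and 22.3 ± 8.37 CPM gave a fold of 0.516 (log2 fold change -0.96, SE 0.34, 95% interval -1.67 to -0.24, edgeR adjusted p = 0.258). The exact permutation test of the CPM gave p = 0.2. Leaving out c129 ended the call (-0.64), as did leaving out c129 and fl125 together (-0.41). An antisense gene, Gm42809, shares 242 exonic bases (2.8%) with Il6ra, and whether reads were counted by strand is not given in the sources used here. Il11ra1, the Il11 receptor chain, was at 241 ± 49.5 and 222 ± 13 CPM, a log2 fold change of -0.12 (edgeR adjusted p = 0.879). Of the receptor chains described, Lifr and Il6ra were thus called and Il6st, Osmr and Il11ra1 were not, and whether the receptors differed from one another in their change was not tested.

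Immune RNA was also lower in cD2KO mice. All 14 immune markers were tested and lower in the mean of cD2KO mice, with 4 called and a median log2 fold change of -1.88, and their sums did not overlap between the groups. Over all genes tested, 6.62% were called lower and 5.34% higher. Of the 14, only Cd14 was at 0 in a library, the one labelled fl125, where the defining macrophage genes Csf1r and Adgre1 kept 23 and 10 counts. Il6ra and the immune sum were both highest in c129 and lowest in fl125, as Lifr was. The 11 endothelial markers tested had 7 called lower with a median of -1.28 (sums of 274, 360 and 425 CPM in WT and 208, 216 and 273 CPM in cD2KO mice), and Cldn5, Tie1 and Plvap were at 0 in a library. Esam (0.32) and Tek (0.04) lay above 0 and were not called, and Esam was higher in all cD2KO mice than in all WT mice. The 10 fibroadipogenic markers tested, of cells that also use Lifr and gp130, had 2 called lower and 1 higher with a median of -0.46. Their sums overlapped, at 4090 to 6560 CPM in WT and 2590 to 5470 CPM in cD2KO, and Pi16 was at 0 in a library. The part of these cells in the receptor values was not tested, and in sorted bulk samples fewer cells of a type and less RNA per cell cannot be told apart.

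**Figure D2:**
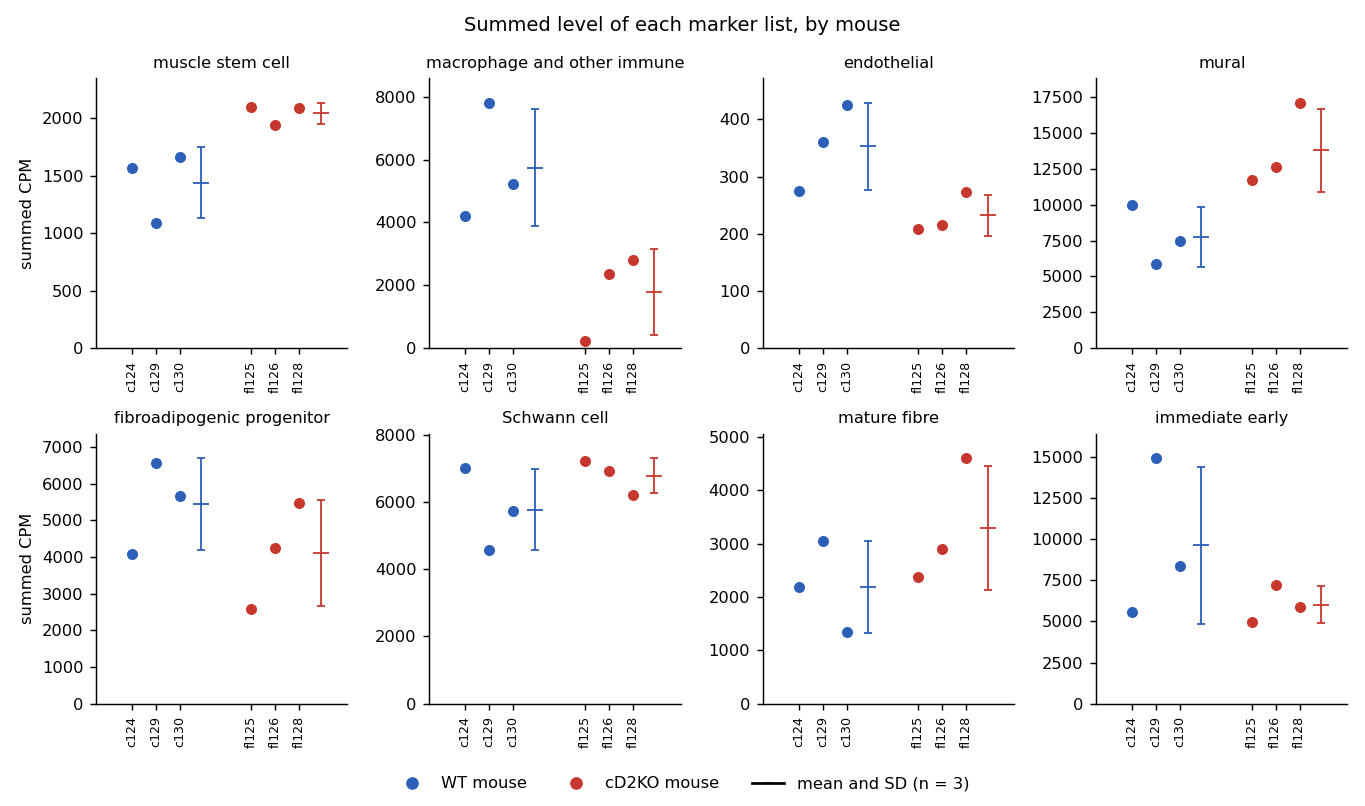
Summed CPM (y axis, starting at 0) of the marker genes of 8 lists in each mouse (x axis), in WT (blue) and cD2KO (red), with the mean and SD of 3 mice. The immune sum separated the groups, with 4200 to 7800 CPM in WT and 218 to 2800 CPM in cD2KO, and the immediate early sum was highest in c129. The muscle stem cell and mural sums were higher in all cD2KO mice, and Acta2 and Myh11 made up most of the mural sum.

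Other lists moved the opposite way or overlapped. Over all genes tested, 5.34% were called higher and 6.62% lower. Among muscle stem cell markers, 4 of 10 were called higher with a median of 0.36. Myf5, Cdh15, Itga7 and Des were called, while Pax7, Calcr, Chrdl2, Vcam1, Sdc4 and Heyl were not. Vcam1 (-0.09) and Sdc4 (-0.46) lay below 0. Mural markers, of the cells around small vessels, had 5 of 11 called higher with a median of 0.34 and sums of 10000, 5840 and 7450 CPM in WT against 11700, 12600 and 17100 CPM in cD2KO mice. Acta2, Myh11, Notch3, Tagln and Mcam were called, and Acta2 and Myh11 together made up most of the mural sum in each mouse. Pdgfrb (-0.06), Kcnj8 (-0.36) and Abcc9 (-0.23) lay below 0, and the log2 fold change of Rgs5 rounded to 0. For Schwann cell markers 1 of 7 was called lower with a median of 0.03 (sums of 4580 to 7010 CPM in WT and 6210 to 7210 CPM in cD2KO). Mature fiber markers had 0 of 7 called by edgeR in either direction at an unadjusted p under 0.05, with a median of 0.50 (sums of 1340 to 3060 and 2370 to 4600 CPM). No marker of these lists was at 0 in any library.

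No kinase transcript was called. Jak1 (ENSMUSG00000028530, chr4:101152367-101265282, minus strand), the kinase on which gp130 mainly depends, was at 221, 212 and 233 CPM in WT and at 206, 199 and 203 CPM in cD2KO mice. All cD2KO mice lay below all WT mice, and the step was small, from 222 ± 10.2 to 203 ± 3.52 CPM, although the exact permutation test of the CPM gave p = 0.1, the smallest it can give, and the gene was not called (log2 fold change -0.13, SE 0.18, 95% interval -0.52 to 0.25, edgeR adjusted p = 0.847). Lifr and Jak1 were the 2 of 8 members tested whose groups did not overlap in this direction, against 10% of all genes. Upward, 0 members separated, against 8.05% of all genes. Jak2 (chr19:29251828-29313080, plus strand) was at 17.2, 11.8 and 22.5 CPM in WT and at 9.51, 17.8 and 12.6 CPM in cD2KO, and its groups overlapped. Its log2 fold change was -0.36 with a 95% interval from -1.16 to 0.44 (edgeR adjusted p = 0.766). Tyk2, the remaining kinase of this receptor, was at 31 ± 5.37 and 22.7 ± 7.99 CPM (log2 fold change -0.44, edgeR adjusted p = 0.632).

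Stat3 (ENSMUSG00000004040, chr11:100885098-100939540, minus strand) was at 161, 180 and 191 CPM in c124, c129 and c130 and at 223, 188 and 155 CPM in the libraries labelled fl125, fl126 and fl128. The cD2KO range enclosed that of WT, with fl125 highest and fl128 lowest of all. Means of 177 ± 14.9 and 189 ± 34.4 CPM gave a log2 fold change of 0.09 (SE 0.20, 95% interval -0.34 to 0.52, edgeR adjusted p = 0.917), which became -0.01 without fl125. Transcript levels of Stat3 were therefore not seen to differ, within bounds of about these sizes.

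Socs3, the inhibitor that Stat3 induces and that binds gp130 and its kinases (ENSMUSG00000053113, chr11:117966079-117970047, minus strand), was at 68.4, 161 and 93.5 CPM in c124, c129 and c130. In the libraries labelled fl125, fl126 and fl128 it was at 67, 78.3 and 53.4 CPM. The cD2KO mice lay close together, the WT mice were spread out, and the groups overlapped because c124 was as low as the cD2KO mice. Means of 108 ± 48.1 and 66.2 ± 12.5 CPM gave a fold of 0.616 (log2 fold change -0.70, SE 0.29, 95% interval -1.32 to -0.07, edgeR adjusted p = 0.371), and the exact permutation test of the CPM gave p = 0.2. Leaving out c129 brought the log2 fold change to -0.27. The call was also lost without fl125 (-0.67), without fl128 (-0.56), without c129 and fl125 together (-0.26) and with limma voom (-0.62). Socs1, a related inhibitor, was at 6.4, 15.1 and 4.5 CPM in WT and at 2.72, 2.74 and 5.65 CPM in cD2KO (log2 fold change -1.19, edgeR adjusted p = 0.487), so it was also highest in c129. Immediate early genes, which rise within minutes of cell stress or dissociation, were highest in c129 too. Their 15 members summed to 5570, 14900 and 8390 CPM in WT and to 4990, 7220 and 5860 CPM in cD2KO mice, overlapping between the groups. Of the 15, 8 were called lower, against 6.62% of all genes, with a median of -0.89 and no gene at 0. Their part in the Socs3 values was not tested.

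**Figure D3:**
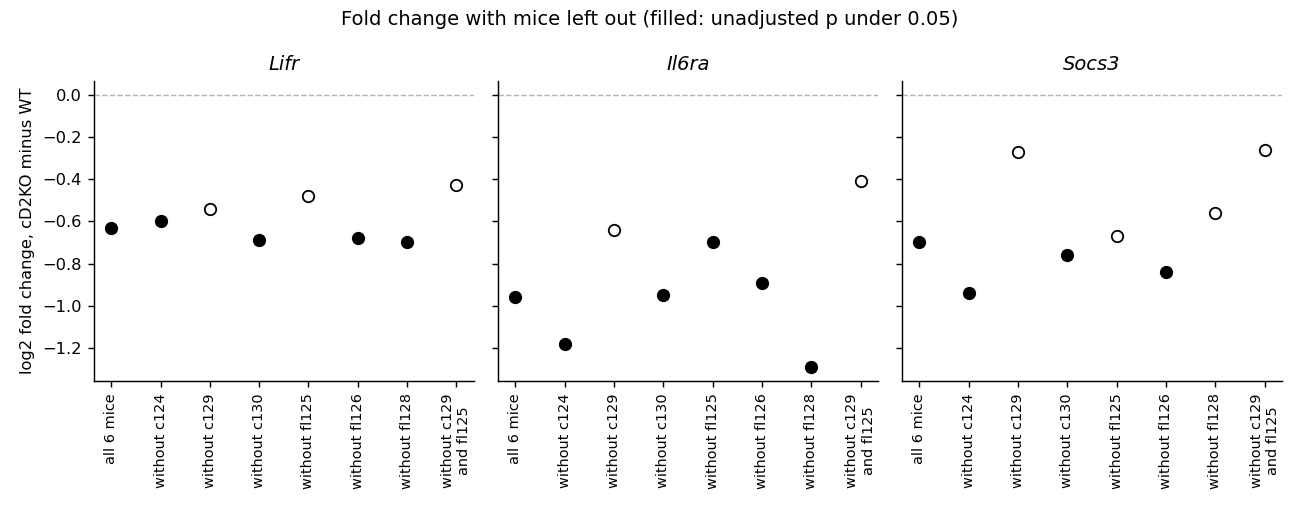
Log2 fold change of cD2KO against WT (y axis) for Lifr, Il6ra and Socs3 with all 6 mice, with each mouse left out in turn and with c129 and fl125 left out together (x axis), filled where the unadjusted p of edgeR was under 0.05 and open where it was not. All values were below 0, and none of the 3 genes kept its call without c129.

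Within each mouse the members could be set against each other without any scaling between libraries. Per 100 reads of Il6st there were 26.8, 24.7 and 20.4 reads of Lifr in c124, c129 and c130 and 20.1, 15.1 and 16.9 in fl125, fl126 and fl128. For Il6ra the same ratio was 13.7, 24.7 and 17.7 in WT and 10.1, 8.06 and 13.7 in cD2KO mice. Per 100 reads of Stat3 there were 42.4, 89.5 and 49 reads of Socs3 in WT and 30, 41.6 and 34.6 in cD2KO. In all 3 ratios each cD2KO mouse lay below each WT mouse, although the nearest mice were within less than 1 read per 100 of each other. By contrast, Osmr per 100 reads of Il6st was 4.53, 3.64 and 2.48 in WT and 3.66, 3.63 and 3.69 in cD2KO, and Jak2 per 100 reads of Jak1 was 7.76, 5.57 and 9.67 in WT and 4.62, 8.93 and 6.18 in cD2KO. Both of these overlapped. The ratios are given as a description, with no test, and they share the reads of the tests above. For Il6ra the nearest mice, c124 and fl128, were level at 13.7 after rounding. In CPM, Il6ra and Socs3 overlapped between the groups. Downward separation was seen in 10% of all genes tested, and the share over other ratios was not computed.

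**Figure D4:**
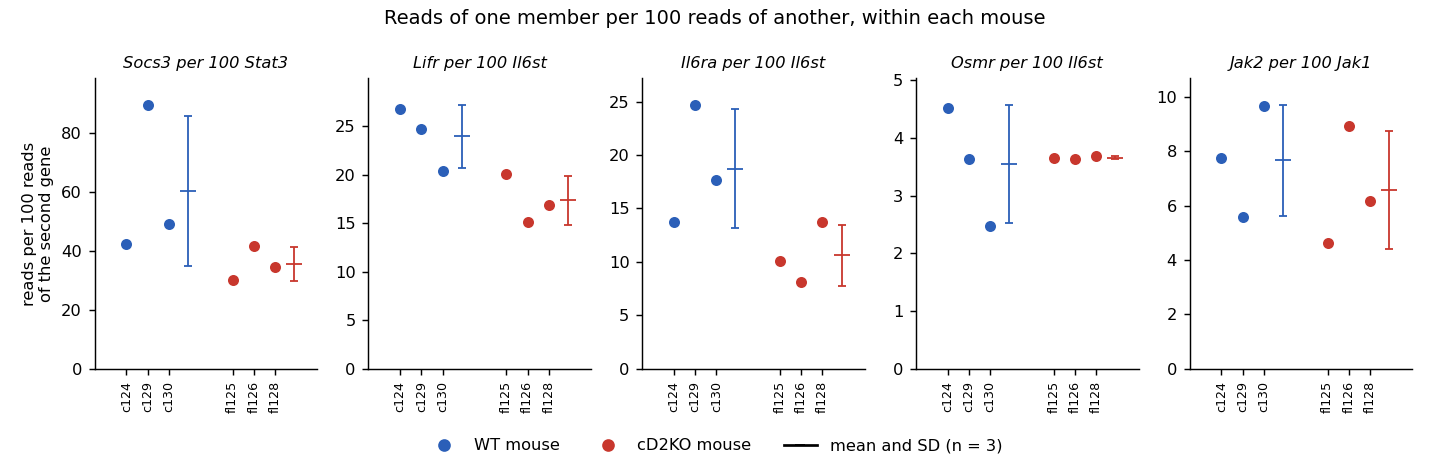
Reads of a member per 100 reads of a second member (y axis, starting at 0) in each mouse (x axis), in WT (blue) and cD2KO (red), with the mean and SD of 3 mice. Socs3 per 100 Stat3 averaged 60.3 in WT and 35.4 in cD2KO, while Osmr per 100 Il6st averaged 3.55 and 3.66.

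Ranked by mean CPM per kb of exonic length in WT, the members were ordered Socs3 (37.4), Jak1 (30.7), Il6st (20.9), Stat3 (18.6), Lifr (5.14), Il6ra (5.07), Jak2 (3.42), Il6 (1.38), Osmr (0.674) and Lif (0.0393). Neighbours whose ranges over the WT mice overlapped were Socs3 and Jak1, Il6st and Stat3, Lifr and Il6ra, Il6ra and Jak2, and Il6 and Osmr. The ranges of Jak1 and Il6st, of Stat3 and Lifr, of Jak2 and Il6 and of Osmr and Lif did not overlap, although the nearest mice of Jak2 (2.35) and Il6 (2.13) were close. In cD2KO mice Jak1 (28.1) came before Socs3 (22.9), Stat3 (19.8) and Il6st (19), and these were followed by Lifr (3.31), Jak2 (2.64), Il6ra (2.58), Osmr (0.637), Il6 (0.156) and Lif (0). On the scale per kb, Il6st, Jak1 and Stat3 were thus above Lifr, Il6ra and Osmr in the means of both groups. Whether these libraries count reads along the whole transcript or only at its end is not given in the sources used here, and the order per kb holds only for the former.

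Around the members, 44 further genes of the pathway were listed and 34 were tested. Of these, 4 (11.8%) were called lower, against 6.62% of all genes, and 0 higher, against 5.34%, by edgeR, with a median log2 fold change of -0.11 against -0.02. Without c129 1 was called lower, without fl128 2, and without c124 1 was called higher. DESeq2 and limma voom each called 0 higher and 2 lower. Groups separated downward in 4 of the 34 genes, against 10% of all genes, and upward in 1, against 8.05%. Ptprc, the CD45 phosphatase of blood cells and also an immune marker above, fell from 37.4 ± 27.9 to 9.22 ± 5.95 CPM (log2 fold change -1.98, edgeR adjusted p = 0.221), and its call was lost without fl128 (-1.86) and without c129 and fl125 together (-0.83), while without c129 alone it was called at -1.16. Ptpn6, the phosphatase SHP-1, which is abundant in blood cells, fell from 22.6 ± 18.9 to 6.58 ± 2.26 CPM (-1.74, edgeR adjusted p = 0.206). Ptpn6 lost its call without c129 (-0.80), without c129 and fl125 together (-0.56) and with limma voom (-1.37). Both are listed here as phosphatases that can act on Jak kinases, and both were highest in c129 and lowest in fl125, as the immune markers were. Sh2b3, the adaptor Lnk that dampens Jak2 signaling, was at 50.4, 55.7 and 56.4 CPM in WT and at 44.4, 36.6 and 32.7 CPM in cD2KO. It separated the groups (-0.52, edgeR adjusted p = 0.389), but with 1 mouse left out its call held only without fl125 (-0.61), and it held without c129 and fl125 together (-0.59). Without c124, c129, c130, fl126 and fl128 the value was -0.57, -0.48, -0.46, -0.50 and -0.42. The Sh2b3 call was also lost with DESeq2 (-0.50) and with no minimum on the counts (-0.49). Of the 10 listed genes that were not tested, Il31 was at 0 in all mice.

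Known targets of Stat3 were examined next. Of 27 listed targets 25 were tested, and of these 6 (24%) were called lower and 1 (4%) higher by edgeR at an unadjusted p under 0.05, against 6.62% and 5.34% of all genes, with 20 of 25 below 0 and a median log2 fold change of -0.34 against -0.02. Groups separated downward in 3 of the 25, against 10% of all genes, and upward in 1, against 8.05%, so these shares were near or under those of all genes. The list was written by hand from textbook targets that other pathways also drive, and it shares 3 genes with the immediate early list. With c129 left out 2 targets were called lower, and with c129 and fl125 both left out 3 were. Targets called higher numbered 0 without c129, fl126 or fl128, and 2 without c130 or without c129 and fl125 together.

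Klf4, a transcription factor of quiescent and vascular cells, had the firmest difference of the list. It was at 107, 254 and 176 CPM in c124, c129 and c130 and at 67, 71.1 and 64.1 CPM in the libraries labelled fl125, fl126 and fl128. Every cD2KO mouse lay below every WT mouse, and the cD2KO mice differed little from one another. The fold was 0.377 (log2 fold change -1.41, SE 0.27, edgeR adjusted p = 0.0885), and it was called with any mouse left out and without c129 and fl125 together (-1.03). Il4ra, the Il4 receptor chain, was at 31.2, 57.2 and 51.6 CPM in WT and at 24.9, 19.2 and 27.9 CPM in cD2KO. It also separated the groups (-0.95, SE 0.29, edgeR adjusted p = 0.182) and was called with any mouse left out and without both (-0.77).

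The remaining calls were lost in some fits without a mouse. Pim1, a survival kinase, fell from 23.7 ± 12.4 to 9.29 ± 5.19 CPM (-1.32, edgeR adjusted p = 0.258), and its call was lost without c129 (-0.81) and without c129 and fl125 together (-0.52). Icam1, an adhesion molecule of inflamed endothelium and leukocytes, fell from 11.8 ± 6.5 to 4.64 ± 2.68 CPM (-1.30, edgeR adjusted p = 0.384). Icam1 lost its call without c129 (-0.75), fl125 (-0.95) or fl126 (-1.21), without c129 and fl125 together (-0.43) and with limma voom (-1.15). Fos, an immediate early gene, was at 298, 1040 and 507 CPM in WT and at 214, 346 and 319 CPM in cD2KO (-1.07, edgeR adjusted p = 0.388). The Fos call was lost without c129 (-0.43), fl125 (-0.84) or fl128 (-1.14), without c129 and fl125 together (-0.24) and with limma voom (-0.91). Junb, another immediate early gene and named after its values were seen, was the sixth (-0.62, edgeR adjusted p = 0.396). Junb lost its call without c129 (-0.37), c130 (-0.56), fl125 (-0.59) or fl128 (-0.42), and without c129 and fl125 together (-0.37). With non-robust estimation its call was lost as well (-0.62). Hif1a, the oxygen-regulated transcription factor, was the gene called higher. It was at 58.4, 47.3 and 60.9 CPM in WT and at 63.4, 87.6 and 93 CPM in cD2KO, without overlap (0.55, edgeR adjusted p = 0.346). Leaving out c129 (0.47), fl126 (0.50) or fl128 (0.44) ended that call, while without c129 and fl125 together Hif1a was called at 0.63.

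**Figure D5:**
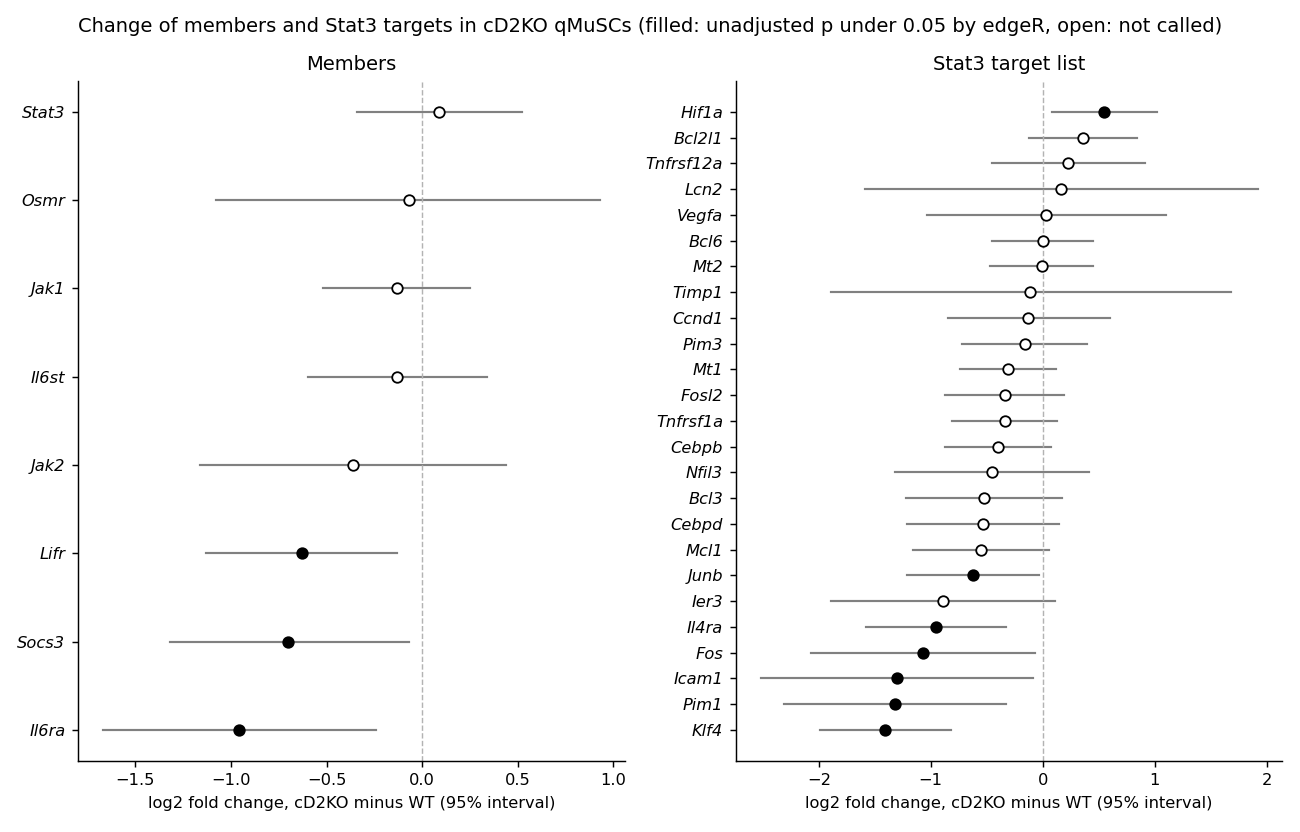
Log2 fold change of cD2KO against WT with its 95% interval (x axis) for the 8 members tested (left) and the 25 Stat3 targets tested (right), filled where the unadjusted p of edgeR was under 0.05. Lifr, Socs3 and Il6ra lie below 0 with their intervals, Il6st, Osmr, Jak1, Jak2 and Stat3 span 0, and Klf4 lies lowest among the targets at -1.41.

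In the 250-base promoter windows of the targets, matched for 24 of the 27, TTCNNNGAA was found in 3 (Tnfrsf1a, Icam1 and Bcl6). It was in 7.02% of all windows, a share per window, while a target was counted where any of its windows matched. The 3 targets held it in at least 1 window each. Of these Icam1 was called lower and the other two were not called, with log2 fold changes between -0.34 and 0.

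Genes whose log2 CPM followed a member most closely over the 6 mice were looked up for the chains and factors in the middle of the pathway. For Il6st these were Gzma (Pearson r = 0.999), 4932435O22Rik (0.995) and Ccl5 (0.995). Gzma and Ccl5, genes of cytotoxic lymphocytes, had 0 and 2 counts in fl125, where Il6st was also lowest, and 58 to 143 and 62 to 186 counts in the other mice. For Osmr they were Kctd7 (0.991), Fam213b (0.987) and Rad51c (0.987), for Stat3 Bcl2l13 (0.989), Slc15a4 (0.987) and D16Ertd472e (0.981), and for Socs3 Csnk2a2 (0.995), Elmo1 (0.994) and Inpp5k (0.993). With 11633 genes searched over 6 mice, values this high are a description of these libraries, which also share their depth and cell makeup.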

How the data were processed

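RNA of FACS-sorted qMuSCs was sequenced for 3 WT and 3 cD2KO mice, grouped by the genotype in the labels. The authors deposited raw counts of reads per gene without normalization. The labels name a digital RNA-seq service, and the submitters' processing notes name bcl2fastq, STAR 2.6.0a, HTSeq 0.9.1 and mm10. The sources used here do not give the annotation, the strand setting, any removal of duplicates or the part of each tool other than alignment with STAR. Symbols and coordinates came from GENCODE M21, and promoters from RefSeq (GRCm38.p6).

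The 11633 genes whose counts, normalized by DESeq2, averaged over 10 were tested with edgeR 4.0.16 in R 4.3.3 (quasi-likelihood, robust, TMM factors, 6 mice, no covariate), with Benjamini-Hochberg adjustment over all of them. Genes under the minimum, and the CPM of 4 members, were compared by exact permutation over the 20 ways to choose 3 mice of 6, two-sided. Log2 CPM used a prior count of 2. SDs are between mice. The mice are named as separate animals, and every pair of libraries differed by more than sampling noise (chi-square per degree of freedom of at least 8.66). The scripts were first tested on simulated counts. The alternatives were DESeq2 1.42.0, limma 3.58.1 (voom), other scalings and minima, non-robust estimation, adjusted p under 0.1 and each mouse left out. Leaving out c129 and fl125 together was chosen after seeing the data.

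The members and lists were chosen with earlier results of these data known. Named were the 10 members, the called genes of the wider and Stat3 target lists (up to 5 in each direction by p), Osm, Clcf1, Il11ra1, Tyk2 and Socs1, and the 3 genes most like Il6st, Osmr, Stat3 and Socs3. Junb, Gm42809, Tnfrsf1a, Bcl6, Esam, Tek, the mural markers given by name and the 10 muscle stem cell markers were named after their values were seen. Some genes that this rule takes in are counted in their lists but not reported here by name.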

Additional observations from a re-analysis of the deposited data

How the results depend on the processing

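With other tests, scalings and minima, the members called lower stayed within 1.5 times of 3, except that 0 were called at an adjusted p under 0.1. Il6ra alone came under that level, with an adjusted p of 0.0714, where no minimum was set on the counts. There 4 members were called, the fourth being Il6 (log2 fold change -2.99, edgeR adjusted p = 0.409). The value of Il6 rests on at most 14 counts per mouse, and c124 and fl128 had no read. With a mouse left out, members called lower ranged from 0 to 3, and without c129 and fl125 together, a setting chosen after seeing the data, there were 0. In the wider list, 2 genes were called lower by DESeq2, 2 by limma voom, 0 at an adjusted p under 0.1 and 1 without c129 and fl125 together. Leaving out a mouse gave 1 to 4 lower and 0 to 1 higher. Of the Stat3 targets, 1 was called lower and 0 higher at an adjusted p under 0.1, and 3 lower and 2 higher without c129 and fl125 together. Leaving out a mouse gave 2 to 9 lower and 0 to 2 higher.

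The sign of members that were not called turned in a few fits. With a mouse left out Il6st ranged from -0.29 to 0.10, Osmr from -0.23 to 0.15 and Stat3 from -0.01 to 0.21. Il6st was at 0.10 without the library labelled fl125 and at 0.13 without c129 and fl125. Osmr was at 0.07 without c124, 0.01 without c129, 0.15 without fl125 and 0.20 without c129 and fl125. Stat3 was at -0.01 without fl125 and at -0.01 without c129 and fl125. The cause was not tested. The 3 called members were below 0 in every fit, between -0.70 and -0.43 for Lifr, -1.29 and -0.41 for Il6ra and -0.94 and -0.26 for Socs3.

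A planned term for sex was not run because the 6 mice all read as one sex. No paired analysis was possible because the labels give the mice no shared replicate numbers. The depth limits Il6, Lif, Osm and Osmr most, which had at most 38 counts per mouse.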
